A study of Mus musculus with 8 samples.

Results

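The genes described here are 44 DNA replication and S phase genes, chosen by name and measured in the pigmented mouse melanoma line B16. Every array spot with one of these gene names was used, and all 44 genes had at least 1 spot. Of these, 43 could be tested, out of 18074 genes tested in all, and the tested genes were well above background on all 8 arrays. Ccne2, which encodes cyclin E2, was well above background on 2 of 8 arrays, control replicate 1 and cytochalasin D replicate 1, and was not tested. The 8 arrays formed 4 groups of 2 biological replicates. They were cells labelled control at 0 h, which the source label also calls a non targeted control, cells given SEMA3E for 2 h, cells given SEMA3E for 8 h, and cells given cytochalasin D for 8 h. The labels name no genetic change in any group. All were grown in high-glucose medium with fetal bovine serum, and the doses and vehicles are not given in the sources used here. SEMA3E is a secreted guidance protein of the class 3 semaphorin family, and cytochalasin D caps actin filaments and stops them from growing. The control was taken at 0 h, so time in culture and treatment cannot be told apart in the comparisons with control.

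Before S phase, the origin recognition complex, Cdc6 and Cdt1 load the Mcm2 to Mcm7 helicase onto DNA, a step called licensing. Cdc45 and the GINS complex then activate the helicase, primase and the polymerases copy the strands, and PCNA, a ring loaded by replication factor C, holds the polymerases on DNA. Many of these genes are known targets of E2F transcription factors, which cyclin E and its kinase release from the retinoblastoma protein as cells enter S phase.

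Promoters are shown first because E2F motif letters were more frequent in them than in promoters at large, although most of the windows had no match. RefSeq windows on mouse build GRCm38.p6, from 250 bases before to 50 bases after a start site, were found for 36 of the 44 genes, and 8 had none. The letters searched were TTTCCCGC, TTTGGCGC, TTTCGCGC and TTTGCCGC on both strands. At least 1 of them lay in a window of 15 of these 36 genes (41.7%), against 704 of 27025 genes with a window (2.60%). Over windows, the shares were 34.9% of 43 and 2.26% of 32851. These 15 genes were Cdc6, Cdt1, Dnmt1, Dtl, Gins3, Lig1, Mcm3, Mcm5, Mcm6, Mcm7, Orc1, Pola1, Pold1, Rfc3 and Uhrf1. A match is a description of the letters and not a measured binding site. The stretches printed here run from 20 bases before the first match to the base before the start site, 5′ to 3′ on the strand of the gene, with the matches in capitals. Cdc6, Dtl and Uhrf1 are shown because their values are described below, Mcm5 and Mcm6 because 2 of their matches overlap, and Slbp because it had the smallest p after 2 h of SEMA3E and no match. For Slbp the 140 bases before the start site are given. The stretches lie at chr11:98907993-98908150 on the plus strand (Cdc6), chr1:191575545-191575572 on the minus strand (Dtl), chr17:56304108-56304312 on the plus strand (Uhrf1), chr8:75109336-75109508 on the plus strand (Mcm5), chr1:128359706-128359835 on the minus strand (Mcm6) and chr5:33652575-33652714 on the minus strand (Slbp).
Cdc6: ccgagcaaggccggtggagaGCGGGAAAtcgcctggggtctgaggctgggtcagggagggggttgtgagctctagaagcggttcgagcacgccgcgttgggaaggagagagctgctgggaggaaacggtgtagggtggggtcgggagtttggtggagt
Dtl: atcagaaagcgtgacgtcagTTTGGCGC
Uhrf1: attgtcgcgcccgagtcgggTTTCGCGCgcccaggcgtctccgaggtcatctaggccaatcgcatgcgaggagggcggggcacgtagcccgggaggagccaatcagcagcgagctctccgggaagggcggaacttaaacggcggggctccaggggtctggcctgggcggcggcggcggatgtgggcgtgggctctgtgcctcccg
Mcm5: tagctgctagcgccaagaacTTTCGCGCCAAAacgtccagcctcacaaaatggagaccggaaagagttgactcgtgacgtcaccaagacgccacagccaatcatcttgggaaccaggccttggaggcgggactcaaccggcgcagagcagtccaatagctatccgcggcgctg
Mcm6: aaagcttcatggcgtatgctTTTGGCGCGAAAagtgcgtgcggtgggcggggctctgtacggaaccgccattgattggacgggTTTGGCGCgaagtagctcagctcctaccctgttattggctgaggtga
Slbp: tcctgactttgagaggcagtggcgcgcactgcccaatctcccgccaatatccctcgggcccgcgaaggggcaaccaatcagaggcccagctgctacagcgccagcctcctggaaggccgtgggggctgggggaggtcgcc
The 15 genes with a match are set here beside the 21 genes with a window and no match. After 2 h of SEMA3E their median differences from control were -0.16 and -0.05 on the log2 scale, and after 8 h -0.07 and -0.01. After cytochalasin D the medians were 0.03 and 0.06.

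Every value below is the log2 processed signal minus the 75th percentile of the probes well above background on its own array, so that a difference of 1 is 2-fold. The signals are intensities without a read depth, and the 2 arrays of a group limit their precision. A level on this scale is set only against the same probe on another array. The cells carried the melanocyte markers, with all 7 of 7 above background on 8 arrays and Dct between 4.20 and 4.80. Lum, Pdgfra, Lyz2, Krt10, Cdh5 and Tek, markers of other cell types, were above background on 0 arrays, and Ptprc was on 1. Other markers of those cell types were detected, with Col1a1, Col1a2, Cd3e, Itgam, Pecam1 and Kdr above background on 8 arrays, at levels between -6.83 and -3.42, Krt14 on 6, Krt5 on 3, and Dcn on 2. Their part in the results was not tested. In cell populations like these, fewer cells in S phase and less RNA per cell cannot be told apart. All arrays lay on 1 slide with 1 scan date and each group held neighbouring positions, so position and group cannot be told apart. The arrays of SEMA3E at 2 h were dim, with 75th percentile signals of 59.3 and 61.1, as was cytochalasin D replicate 2 with 66.8, and the others lay at 111 to 154. SEMA3E 2 h replicate 2 had 214 outlier spots and SEMA3E 8 h replicate 2 had raw negative controls at a mean of 51.6, against 28.1 to 32.4 elsewhere.

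None of the 43 genes passed the test in any of the 5 comparisons, by limma with Benjamini-Hochberg adjustment over all genes at an adjusted p under 0.05. For 124 of the 215 pairs of gene and comparison, the 95% interval of the difference lay within 2-fold either way. Standard errors of these differences had a median of 0.28, beside 0.34 over all genes tested. The replicates of a group differed by a median of 0.27 (control), 0.24 (SEMA3E 2 h), 0.21 (SEMA3E 8 h) and 0.31 (cytochalasin D) over the 43 genes. The 2 control arrays were more than 2-fold apart for Pola1 and Pola2, and the SEMA3E 2 h arrays for Mcm2 and Pola2. Across the groups the closest pair of arrays for these genes was control replicate 2 and cytochalasin D replicate 1, with a median gap of 0.12. The colour map of all 43 genes gives each array beside the control mean.

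**Figure D1:**
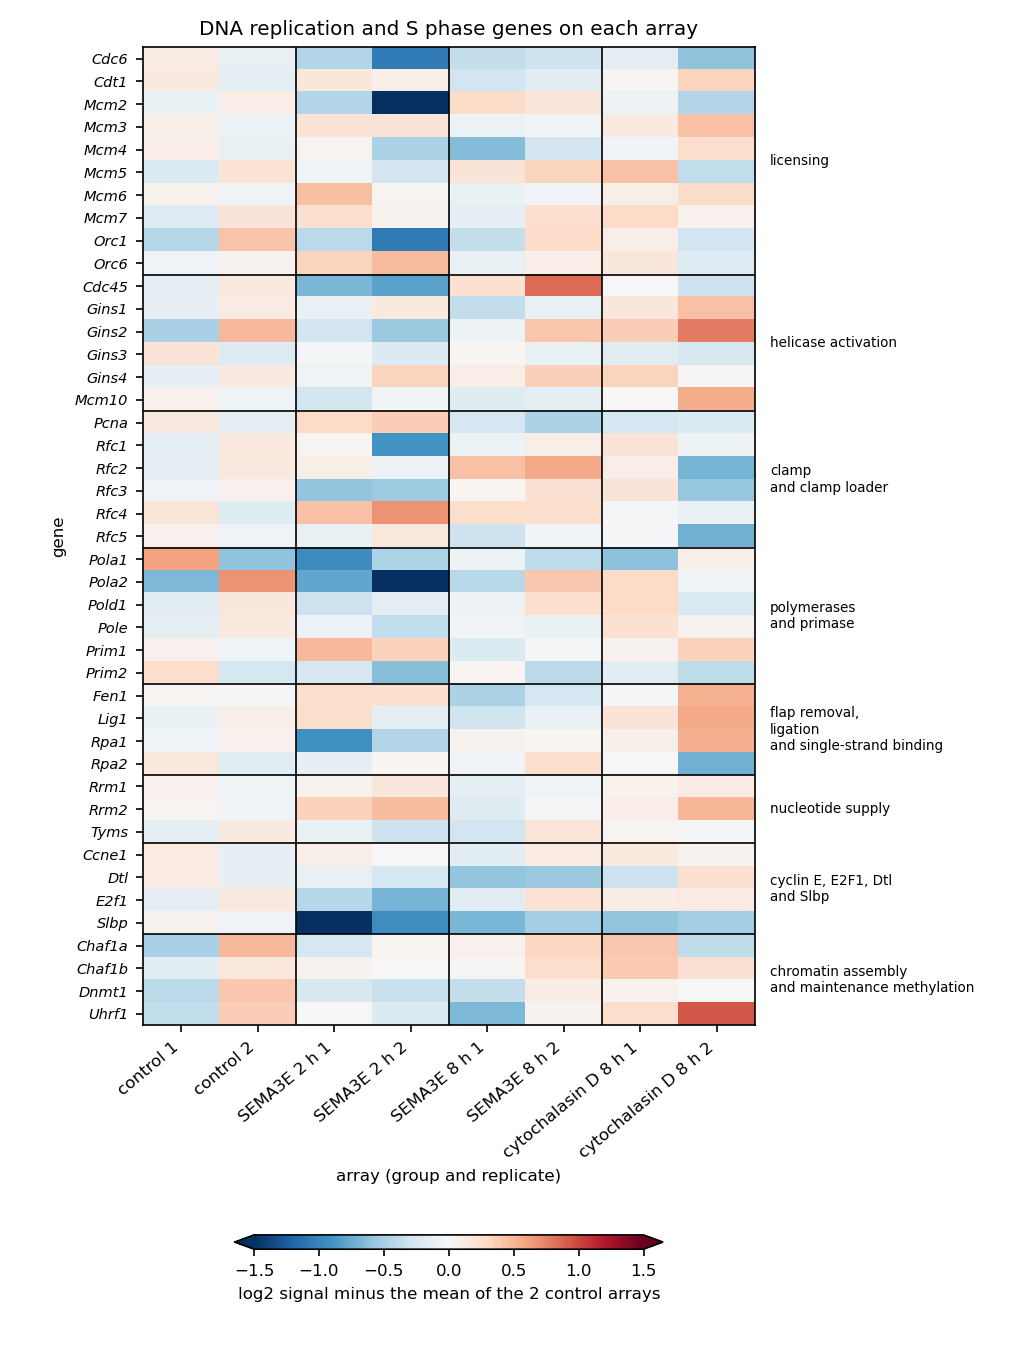
Each row is 1 of the 43 tested genes, ordered by role, and each column is 1 array. Colour gives the log2 signal minus the mean of the 2 control arrays, red higher and blue lower. Slbp is blue on all 6 treated arrays, Mcm2 and Pola2 are darkest on SEMA3E 2 h replicate 2, and the control columns differ for Pola1, Pola2, Gins2 and Chaf1a.

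After 2 h of SEMA3E, Slbp was the gene with the smallest p. Slbp encodes the stem-loop binding protein, which binds the end of replication-dependent histone mRNAs and is made in S phase. Its level was -0.39 and -0.49 on the control arrays, -2.18 and -1.38 after SEMA3E for 2 h, -1.12 and -0.95 after SEMA3E for 8 h, and -1.04 and -0.95 after cytochalasin D. Both controls lay above all 6 treated arrays, and the 2 h arrays were the lowest. The 2 h difference was -1.34 ± 0.32 (SE, n = 2 per group; limma adjusted p = 0.4446), 2.53-fold lower. At 8 h it was -0.59 ± 0.32 with SEMA3E (adjusted p = 0.8506) and -0.55 ± 0.32 with cytochalasin D (0.9997). A second, dimmer Slbp probe differed by -1.08 ± 0.31 at 2 h, -0.50 ± 0.31 with SEMA3E at 8 h and 0.13 ± 0.31 with cytochalasin D. On that probe both 2 h arrays lay below the controls, and the cytochalasin D arrays lay between the 2 controls. With another background correction, normexp, the Slbp difference at 2 h was -0.88 with an adjusted p of 0.04931, in a fit that called 3454 of all genes.

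Among the licensing genes, 5 of 10 lay above and 5 below control after 2 h of SEMA3E, with a median difference of -0.01. Of all genes, 54.88% lay above control in that comparison. Mcm2, a subunit of the helicase ring, was at 0.09 and 0.30 in control, -0.25 and -1.79 at 2 h, 0.46 and 0.37 with SEMA3E at 8 h, and 0.12 and -0.25 with cytochalasin D. Both 2 h arrays were below the controls, but they lay 1.54 apart from each other. The difference was -1.21 ± 0.48 (limma adjusted p = 0.518), and it was -0.44 without SEMA3E 2 h replicate 2 and -1.98 (adjusted p = 0.03535) without replicate 1. The other MCM subunits lay closer to control. Mcm3, Mcm6 and Mcm7 differed by 0.20, 0.25 and 0.15 at 2 h, and Mcm4 and Mcm5 by -0.22 and -0.16. All of these 5 had a 95% interval within 2-fold in this comparison.

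Cdc6, the ATPase that helps load the helicase, had a level of -3.39 and -3.60 in control, -3.93 and -4.56 at 2 h, -3.85 and -3.80 with SEMA3E at 8 h, and -3.64 and -4.10 with cytochalasin D. As for Slbp, both controls lay above all 6 treated arrays, although cytochalasin D replicate 1 was only just below control replicate 2. The differences from control were -0.75 ± 0.31 (2 h), -0.33 ± 0.31 (SEMA3E 8 h) and -0.38 ± 0.31 (cytochalasin D). On the probe used for each gene, Slbp and Cdc6 were the 2 of 43 genes below control in this way in all 3 treatments, against 229 of 18074 genes. In the other direction, 0 of 43 lay above, against 530. The 3 comparisons share the same 2 control arrays, taken at 0 h, and are not independent of each other. On the second Cdc6 probe the 2 h arrays were again below both controls, while the 8 h groups each overlapped with control. Cdt1, the loading factor that geminin blocks, differed by 0.13 at 2 h, -0.22 with SEMA3E at 8 h and 0.18 with cytochalasin D. Of the origin recognition complex, Orc1 differed by -0.74 and Orc6 by 0.41 at 2 h, and both lay within 0.10 of control in the 8 h groups.

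**Figure D2:**
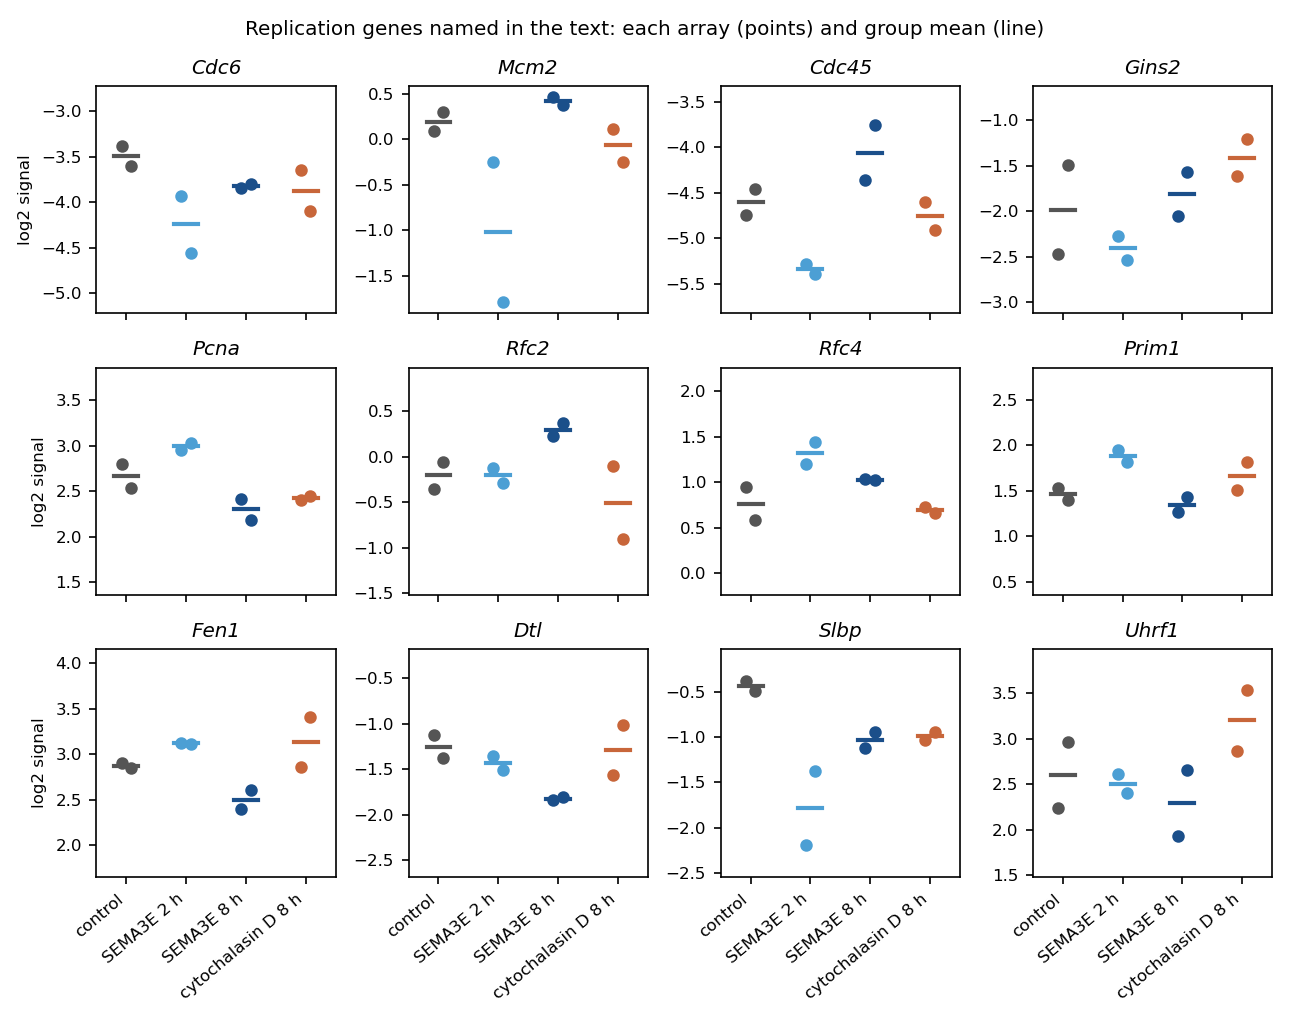
Points are the log2 signal on each of the 2 arrays of a group and lines are the group means, for the 12 genes with the smallest p in either direction in a comparison. Each panel spans the same 2.5 log2 units. Slbp and Cdc6 lie below control in all 3 treated groups, Cdc45 is lowest at 2 h and highest at 8 h of SEMA3E, and the SEMA3E 2 h points of Mcm2 are far apart.

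Of the helicase activation genes, Cdc45 lay on opposite sides of control at the 2 SEMA3E times. Cdc45 links the MCM ring with GINS in the active helicase. Its level was -4.74 and -4.45 in control, -5.28 and -5.39 at 2 h, -4.36 and -3.75 with SEMA3E at 8 h, and -4.60 and -4.91 with cytochalasin D. The 2 h arrays were below, and the SEMA3E 8 h arrays above, all other arrays. Over all genes, both 2 h arrays were below the other 6 for 6.82%, and both SEMA3E 8 h arrays above for 8.16%. Such shares for each group are given with the counts below. The Cdc45 difference from control was -0.74 ± 0.30 at 2 h (limma adjusted p = 0.518) and 0.54 ± 0.30 at 8 h (limma adjusted p = 0.8595). The 8 h difference was -0.62 when scaled to the all-probe median, another scaling, which moves every gene in a comparison by the same amount. Between 8 h and 2 h of SEMA3E the Cdc45 difference was 1.28 ± 0.30 (95% interval 0.58 to 1.98, limma adjusted p = 0.3706), the smallest p of the 43 genes in that comparison. This probe is dim, and with normexp the same difference was 0.03.

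Of the GINS subunits, Gins2 had a level of -2.47 and -1.49 in control, -2.27 and -2.54 at 2 h, -2.05 and -1.57 with SEMA3E at 8 h, and -1.61 and -1.21 with cytochalasin D. Every treated group overlapped with the control pair, whose arrays were 0.97 apart. The cytochalasin D difference was 0.57 ± 0.39. Gins1 differed by 0.02, -0.24 and 0.31 from control in the order SEMA3E 2 h, SEMA3E 8 h and cytochalasin D, and both its cytochalasin D arrays were above the other 6. Gins3 and Gins4 stayed within 0.25 of control in each group. Mcm10, which binds the helicase at firing origins, differed by -0.16, -0.16 and 0.28.

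Of the sliding clamp and its loader, 4 of 6 genes lay above control at 2 h, 4 of 6 with SEMA3E at 8 h and 1 of 6 with cytochalasin D. Among all genes, 54.88%, 63.35% and 53.36% lay above control in these comparisons. Pcna was at 2.80 and 2.53 in control, 2.96 and 3.03 at 2 h, 2.41 and 2.19 with SEMA3E at 8 h, and 2.41 and 2.45 with cytochalasin D. The 2 h arrays were above, and the arrays of both 8 h groups below, both controls. The difference between 8 h and 2 h of SEMA3E was -0.69 ± 0.25 (adjusted p = 0.4108), 1.62-fold lower. Rfc4, a small subunit of the clamp loader, read 0.95 and 0.58 in control, 1.20 and 1.44 at 2 h, 1.03 and 1.02 with SEMA3E at 8 h, and 0.73 and 0.66 with cytochalasin D. Its 2 h arrays were above the other 6, by 0.56 ± 0.26 over control (-0.03 when scaled to the all-probe median), and its second probe differed by 0.76 ± 0.29. Rfc2 read -0.36 and -0.06 in control, -0.12 and -0.29 at 2 h, 0.23 and 0.37 with SEMA3E at 8 h, and -0.11 and -0.91 with cytochalasin D. Its SEMA3E 8 h arrays were above the other 6, and the difference of 0.50 ± 0.33 was -0.66 when scaled to the all-probe median and -0.01 with the GC trend of the probes removed. Cytochalasin D minus SEMA3E at 8 h was -0.81 ± 0.33 for Rfc2 (adjusted p = 0.449), and 0.18 with the first of these scalings. Rfc1, Rfc3 and Rfc5 differed by -0.43, -0.56 and 0.03 at 2 h, and by -0.37 to 0.13 in both 8 h groups.

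In the polymerase and primase group, 1 of 6 genes lay above control at 2 h, beside 54.88% of all genes, with a median of -0.33. That gene was Prim1, the catalytic primase subunit, with levels of 1.53 and 1.39 in control, 1.94 and 1.81 at 2 h, 1.26 and 1.43 with SEMA3E at 8 h, and 1.51 and 1.81 with cytochalasin D. The 2 h arrays were above both controls, by 0.42 ± 0.25 (-0.17 when scaled to the all-probe median). Pola2, the second subunit of polymerase alpha, had the largest 2 h difference of the 43 genes, -1.58 ± 0.63 (adjusted p = 0.518). Its levels were -3.96 and -2.61 in control, -4.06 and -5.66 at 2 h, -3.70 and -2.88 with SEMA3E at 8 h, and -2.99 and -3.35 with cytochalasin D, so that both 2 h arrays were lowest while control replicate 1 was close to SEMA3E 2 h replicate 1. Its 2 h difference was -0.78 without SEMA3E 2 h replicate 2. Pola1, the catalytic subunit of polymerase alpha, read -0.47 and -1.67 in control, and the treated arrays lay between -2.01 and -0.98. Prim2, Pold1 and Pole, a primase subunit and the catalytic subunits of polymerases delta and epsilon, differed by -0.44, -0.22 and -0.23 at 2 h, and by -0.27 to 0.14 in the 8 h groups.

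Fen1, the nuclease that removes flaps between Okazaki fragments, was at 2.90 and 2.85 in control, 3.12 and 3.12 at 2 h, 2.40 and 2.61 with SEMA3E at 8 h, and 2.86 and 3.41 with cytochalasin D. The SEMA3E 8 h arrays were below all others and the 2 h arrays above both controls. Lig1, which seals the fragments, read 2.21 and 2.41 in control, 2.01 and 2.21 with SEMA3E at 8 h, and 2.51 and 2.88 with cytochalasin D. It differed by 0.06 at 2 h, -0.20 with SEMA3E at 8 h and 0.38 with cytochalasin D. Rpa1 and Rpa2 are subunits of the single-strand binding protein RPA. Rpa1 read 1.31 and 1.45 in control, 0.46 and 0.94 at 2 h, 1.43 and 1.41 with SEMA3E at 8 h, and 1.45 and 1.92 with cytochalasin D. Its 2 h arrays were below the other 6, by -0.68 ± 0.29 from control, and its second probe differed by -0.98 ± 0.32. Rpa2 differed by -0.05, 0.10 and -0.36 in the same order of groups.

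The genes for nucleotide supply varied least. Rrm1, the large subunit of ribonucleotide reductase, spanned 0.30 over all 8 arrays, the smallest range of the 43 genes. Rrm2, the small subunit, differed by 0.40 at 2 h, -0.10 with SEMA3E at 8 h and 0.30 with cytochalasin D. Tyms, thymidylate synthase, differed by -0.20, -0.05 and 0.01, and all 3 genes had a 95% interval within 2-fold in both 8 h comparisons with control.

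Ccne1, cyclin E1, spanned 0.31 over the 8 arrays, at levels between 1.73 and 2.04. A second, dim Ccne1 probe read -4.49 and -2.21 in control and -5.19 and -5.00 at 2 h, a difference of -1.75 ± 0.68, so the 2 probes of this gene differed. E2f1, an activating E2F factor, read -0.65 and -0.35 in control and -0.93 and -1.20 at 2 h, both below the other 6 arrays, a difference of -0.57 from control, beside 0.03 and 0.12 in the 8 h groups. Dtl, an adaptor of the ubiquitin ligase that removes Cdt1, read -1.13 and -1.38 in control, -1.36 and -1.51 at 2 h, -1.84 and -1.81 with SEMA3E at 8 h, and -1.56 and -1.02 with cytochalasin D. The SEMA3E 8 h arrays were below the other 6, by -0.57 ± 0.28 from control (adjusted p = 0.8303), the smallest p of the 43 genes at that time.

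Of the chromatin genes, all 4 of 4 lay above control after cytochalasin D, with a median of 0.17, beside 53.4% of all genes above control. Chaf1a and Dnmt1 were above by only 0.02 and 0.03, and these became -0.47 and -0.37 without control replicate 1. Uhrf1, which brings the maintenance DNA methyltransferase to newly copied DNA, read 2.24 and 2.97 in control, 2.61 and 2.40 at 2 h, 1.93 and 2.66 with SEMA3E at 8 h, and 2.87 and 3.53 with cytochalasin D. The cytochalasin D arrays overlapped with control, and the difference of 0.60 ± 0.40 was 0.23 without control replicate 1 and 0.96 without control replicate 2. Against SEMA3E at 8 h, cytochalasin D was higher by 0.91 ± 0.40 (adjusted p = 0.4627), with no overlap. Dnmt1, that methyltransferase, and Chaf1a and Chaf1b, subunits of chromatin assembly factor 1, lay within 0.314 of control in every group. A second Chaf1b probe differed by -0.23 with SEMA3E at 8 h, where the first differed by 0.14. In the other treated groups the Chaf1b probes had the same direction.

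The counts over the whole list are set beside those of all genes. In SEMA3E at 2 h minus control, 18 of 43 (41.86%) lay above 0, beside 54.88% of all genes. The median of the 43 was -0.11, beside 0.06 for all genes. Of all genes 0% passed the adjusted test. At an unadjusted p under 0.05, 0 genes were higher and 5 lower (Slbp, Mcm2, Pola2, Cdc45 and Cdc6), 11.6% of the 43, where 5.58% of all genes were higher and 3.90% lower. The arrays of the groups did not overlap for 7 higher (16.3%) and 8 lower genes (18.6%), beside 24.5% and 15.2% of all genes. The 95% interval lay within 2-fold for 23 of the 43 (53.5%) and for 34.5% of all genes.

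For SEMA3E at 8 h minus control, 16 of 43 (37.21%) lay above 0, beside 63.35% of all genes. The median of the 43 was -0.05 beside 0.12 for all genes, of which 0.00553% passed. No gene of the 43 reached an unadjusted p under 0.05 in limma, beside 5.38% higher and 0.752% lower among all genes. Without overlap, 4 were higher (9.30%) and 9 lower (20.9%), beside 25.1% and 12.4% of all genes. The interval lay within 2-fold for 28 (65.1%), beside 39.6%. For cytochalasin D minus control, which shares the control arrays, 27 of 43 (62.79%) lay above 0, beside 53.36% of all genes. The median of the 43 was 0.06 beside 0.03, and 0% of all genes passed. Again 0 of the 43 reached an unadjusted p under 0.05, beside 0.719% higher and 1.72% lower. Without overlap, 7 were higher (16.3%) and 3 lower (6.98%), beside 15.9% and 13.0%, and the interval lay within 2-fold for 30 (69.8%), beside 41.0%.

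Cytochalasin D minus SEMA3E, both at 8 h, is the comparison with matched times. In it 26 of 43 genes (60.47%) lay above 0, beside 39.7% of all genes. The median of the 43 was 0.11 beside -0.13 for all genes, of which 0.00553% passed. At an unadjusted p under 0.05 there were 0 higher and 1 lower (Rfc2), beside 2.27% and 8.74% of all genes. Without overlap, 15 were higher (34.9%) and 5 lower (11.6%), beside 19.6% and 32.8%. The interval lay within 2-fold for 23 (53.5%), beside 32.5%. The members' median was -0.03 without SEMA3E 8 h replicate 1 and 0.26 without replicate 2. For SEMA3E at 8 h minus 2 h, 25 of 43 (58.14%) lay above 0, beside 56.4% of all genes. The median of the 43 was 0.11 beside 0.09, and 0% of all genes passed. At an unadjusted p under 0.05, 5 were higher (Cdc45, Mcm2, Pola2, Rpa1 and Slbp) and 1 lower (Pcna), beside 8.25% and 3.36%. Without overlap, 15 were higher (34.9%) and 11 lower (25.6%), beside 27.9% and 22.6%, and the interval lay within 2-fold for 20 (46.5%), beside 33.0%. Both SEMA3E 2 h arrays lay above the other 6 for 3 of the 43 genes and below for 6, beside 10% and 6.82% of all genes. With SEMA3E at 8 h, 3 lay above and 3 below, beside 8.16% and 4.56%. With cytochalasin D, 2 lay above and 0 below, beside 4.88% and 5.91%. Both control arrays lay above the other 6 for 2 genes and below for 0, beside 1.27% and 2.93%. None of these shares was tested against the share of all genes. Scaled to the all-probe median, all genes had medians of -0.53, -1.04 and -0.15 in the comparisons with control, in the order given above, and the 43 genes had -0.70, -1.21 and -0.12.

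**Figure D3:**
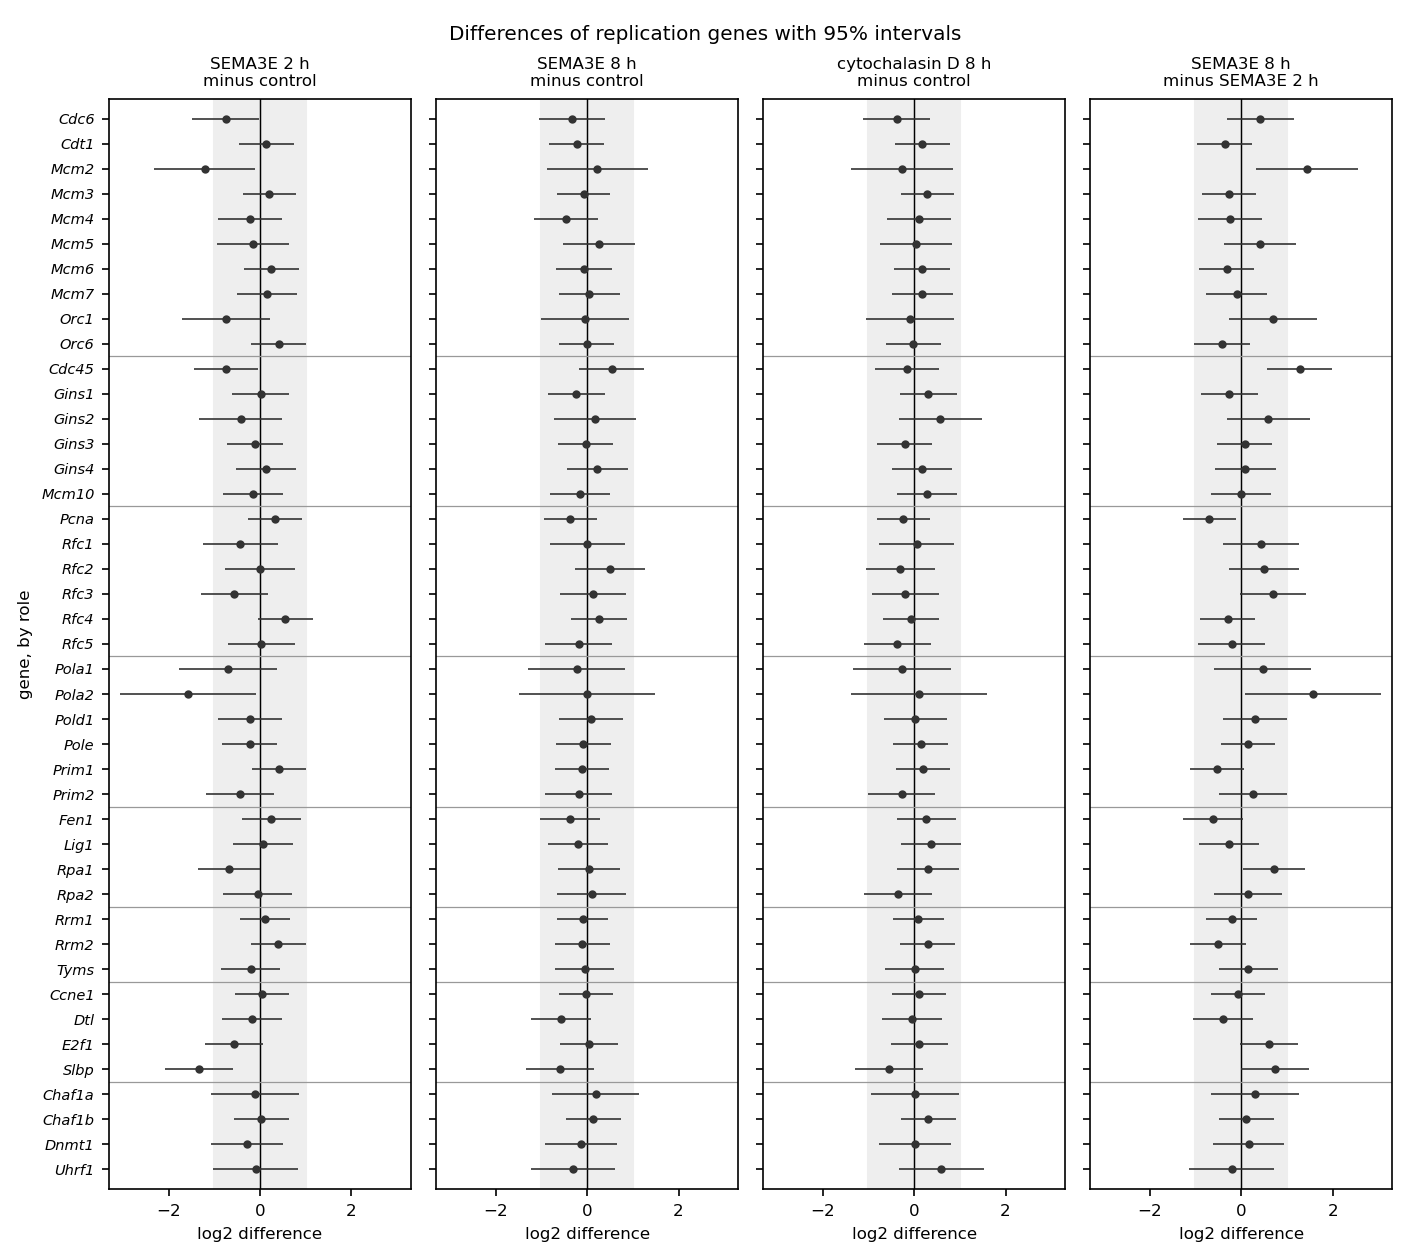
Points are log2 differences of the 43 genes in 4 comparisons, grouped by role, and bars are 95% intervals from limma. The grey band marks 2-fold either way. Most bars cross 0, and those that do not lie mainly in the comparisons that involve SEMA3E at 2 h, such as Slbp, Mcm2, Pola2 and Cdc45.

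The 2 h differences are set here beside the mean signal of each gene's probe. That signal depends on the probe as well as on the RNA, so the order of genes by it is an order of probe brightness and not of RNA abundance. Of the 43 genes, 24 lay in the brightest quintile of all genes tested, and 17 of these 24 were above control at 2 h, with a median of 0.09 beside 0.17 for all genes in that quintile. In the next quintile 1 of 12 was above control (median -0.26 beside -0.02), in the middle quintile 0 of 5 (-0.74 beside -0.07), and in the quintile below it 0 of 2. Across the 43 genes, Spearman's correlation of the 2 h difference with the mean probe signal was 0.70, and over all genes it was 0.02. Restricted to the 2 brightest quintiles it was 0.60 over 36 of the 43 genes and 0.29 over all. Genes share the arrays and are not replicates. For SEMA3E at 8 h minus control the correlation was -0.21 over the 43 genes and -0.37 over all genes, and for cytochalasin D it was 0.53 and 0.08. The 2 h arrays were also among the 3 dimmest of the 8, and the part of this in the differences was not tested.

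**Figure D4:**
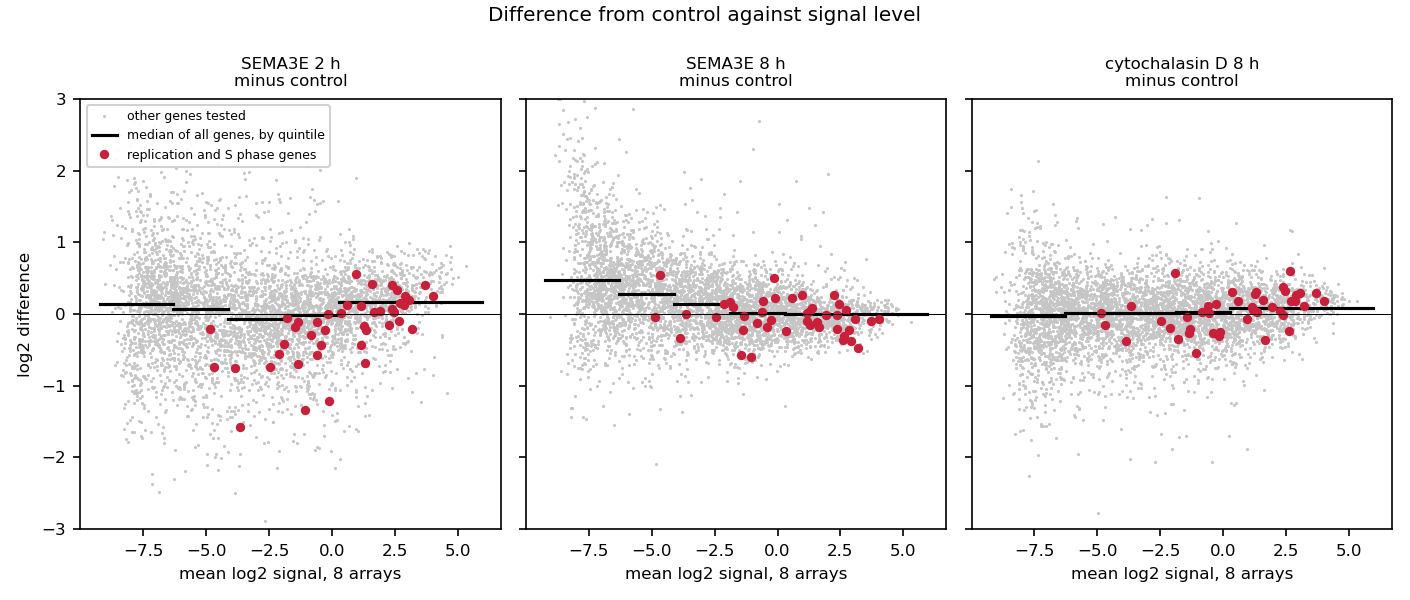
The horizontal axis is the mean log2 signal over 8 arrays and the vertical axis the log2 difference from control, with 1 panel per treatment. Red points are the 43 genes, grey points 1 in every 4 other genes, and black lines the median of all genes in each quintile of that signal. At 2 h of SEMA3E the red points run from below 0 at low signal to above 0 at high signal, while the lines stay near 0.

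Other genes of the pathway, from a list chosen in the same way, are given as counts. Of 52 other replication genes tested, 0 passed in any comparison, and 17, 16 and 27 lay above control in the order SEMA3E 2 h, SEMA3E 8 h and cytochalasin D, with medians of -0.16, -0.18 and 0.02. Among all genes, 54.88%, 63.35% and 53.36% lay above control in that order. E2f7, an atypical repressor of the E2F family, differed by -1.56 ± 0.57 at 2 h, with its 2 arrays at -1.21 and -3.21. Clspn, which encodes claspin of the replication checkpoint, read -5.49 and -5.32 in control, -6.42 and -6.20 at 2 h, and -5.11 and -4.82 at 8 h of SEMA3E, low and then high as for Cdc45. Its difference between 8 h and 2 h was 1.34 ± 0.34 (adjusted p = 0.371), and its probe is dim, as is that of Cdc45. E2f8 differed by -0.70 ± 0.27 at 8 h of SEMA3E, and Nasp, a histone chaperone, by 0.61 ± 0.27 after cytochalasin D. Of 24 mitotic genes tested, 0 passed, and 11, 11 and 13 lay above control, with medians of -0.09, -0.01 and 0.05. The shares of all genes above control are those given beside the other replication genes.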

How the data were processed

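RNA from 8 samples was labelled with Cy3 and hybridised to Agilent mouse arrays read in 1 colour. The authors deposited scanner files made with Feature Extraction 11.5.1.1, per the file headers, whose processed signal is an intensity on a linear scale, background-subtracted and not scaled between arrays, and a table of intensity per gene name. The headers name build mm9 for the array, and no probe positions were used. Control and outlier spots were left out, repeat spots were averaged as log2 values, and these were scaled to each array's 75th percentile over 18691 probes well above background on all 8 arrays. A probe was tested if it was well above background on both arrays of a group, and a gene took its brightest probe. limma 3.58.1 in R 4.3.3 fitted group means to all 8 arrays, with 4 residual and 3.39 prior degrees of freedom and two-sided tests. The 44 genes had 57 probes, of which 53 were tested, and 10 genes had several. Among these 10, the probes of a gene differed in direction for 3 genes in SEMA3E 2 h minus control. They did so for 4 genes with SEMA3E at 8 h and for 5 with cytochalasin D. Values on every array are given for the 2 genes with the smallest p in each direction in each comparison, which gave 12 genes, and other per-array values were chosen after they were seen. The genes and lists were chosen with earlier results of these data known. The fit was checked on simulated data. Motifs and figures used Python 3.11.15 and matplotlib 3.10.9. Alternatives changed the scaling, background correction, filters, probe rule, replicate block, GC content, source table and arrays left out. Probe sequences served only for GC content, and none is printed.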

Additional observations from a re-analysis of the deposited data

Results flagged for a closer look

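Several genes had both arrays of one treated group on one side of both controls and both arrays of another group on the other side. None of these differences passed limma's test over all genes at an adjusted p under 0.05. The share of all genes with this pattern was not counted. Arrays apart from both controls were common over all genes. At SEMA3E 2 h 24.5% of all genes were apart and higher and 15.2% apart and lower. These shares were 25.1% and 12.4% with SEMA3E at 8 h, and 15.9% and 13.0% with cytochalasin D. Between 8 h and 2 h of SEMA3E, Mcm2 differed by 1.44 (adjusted p = 0.4086) and Cdc45 by 1.28 (0.3706), both below control at 2 h and above it at 8 h. Pcna differed by -0.69 (0.4108) and Fen1 by -0.62 (0.4336), both above control at 2 h and below it at 8 h. Between cytochalasin D and SEMA3E at 8 h, Lig1 differed by 0.58 (0.4812), with SEMA3E below and cytochalasin D above control. For Lig1, SEMA3E 8 h replicate 2 was only just below control replicate 1. Cytochalasin D at 8 h and SEMA3E at 2 h lay on opposite sides of control for Pcna, by -0.57, and for Rpa1, by 0.98. For Rpa1, cytochalasin D replicate 1 was only just above control replicate 2. The Pcna and Rpa1 differences between cytochalasin D and SEMA3E at 2 h were not tested, and the groups differ in both agent and time.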

How the results depend on the processing

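Over 21 alternatives and 5 comparisons, 102 of 105 counts of genes passing were 0 of 43. The count was 1 for SEMA3E 2 h minus control with normexp (Slbp), in the fit that also called many of all genes, as given above. The other counts that were not 0 came from leaving out SEMA3E 2 h replicate 1, which leaves 1 array in that group. That array had 214 outlier spots. In that fit Mcm2 differed by -1.98 at 2 h from control and by 2.21 in SEMA3E 8 h minus 2 h. Of the 420 values for named genes, 413 kept their direction, but these were chosen by their p. Over all 215 pairs of gene and comparison, the sign turned in 81 when arrays were scaled to the all-probe median (20 of the 82 past their standard error), in 24 to 33 with quantile normalization, normexp, both together, the 75th percentile over all probes or the GC trend removed, and in 8 to 32 with single arrays left out. Scaling to the median of all probes moved the median of all genes by over 0.1 in each comparison with control (-0.53, -1.04 and -0.15) and turned Rfc4 (-0.034) and Prim1 (-0.17) at 2 h, Cdc45 (-0.62) and Rfc2 (-0.66) at SEMA3E 8 h, and Rfc2 (0.18) and Cdc45 (0.29) in cytochalasin D minus SEMA3E. The all-probe median is 1 value per array, so this scaling moved all genes of a comparison by the same amount. Under it, Rfc4 and Prim1 at 2 h still lay above the all-gene median of -0.53. Cdc45 and Rfc2 at SEMA3E 8 h still lay above that of -1.04. Removing the GC trend turned Rfc2 (-0.013) at SEMA3E 8 h. Why the all-probe medians differed between arrays, and the cause of the change with GC, were not tested. The genes' median moved by more than the spread of array medians (0.09) in these cases. At SEMA3E 2 h it was -0.70 with the median of all probes, 0.046 with normexp and -0.23 from the deposited table. At SEMA3E 8 h it was -1.21 with the median of all probes, -0.27 with the 75th percentile of all probes, -0.20 without the GC trend and -0.13 to 0.056 over arrays left out. For cytochalasin D it was -0.12 with the median of all probes. For cytochalasin D minus SEMA3E at 8 h the same 3 scalings gave 1.1, 0.36 and 0.29, and arrays left out gave -0.030 to 0.26. For SEMA3E 8 h minus 2 h the values were -0.45, -0.15, -0.061 with normexp, -0.050 without the GC trend, 0.23 from the deposited table, and -0.017 to 0.15 over arrays left out. The replicate block changed no call, with adjusted p = 0.472 for Slbp at 2 h. The main fit did not pair samples by replicate number. Correlations of same-numbered deviations ran from -0.15 to 0.14, which cannot show whether same-numbered samples were handled together. Leaving out single arrays turned the sign of 18, 21 and 21 of 43 genes in the comparisons with control. Dim probes limit Tyms, Cdc45, Cdc6, Pola2, the second probes of Ccne1 and Uhrf1, and Clspn among the other replication genes.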
